A study of Homo sapiens with 6 samples.

Results

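The BCL2 family decides whether a cell keeps or loses the outer membrane of its mitochondria, and 10 of its genes are described here in HepG2 cells treated with polydatin (PD). The 10 genes were taken by name, with Ensembl identifiers paired to GENCODE symbols, and all 10 have a row among the 28563 genes of the deposited table. They comprise 5 survival genes (BCL2, BCL2L1, BCL2L2, MCL1 and BCL2A1), the pore-forming effector BAK1, and 4 BH3-only genes (BID, BIK, BCL2L11 and BMF). HepG2 is an established human line of liver cancer cells. PD, a glucoside of resveratrol made by plants, was dissolved in DMSO. Cells received 336 µM of PD according to the sample labels, a little more than the dose in the paper, or DMSO alone, and RNA was taken after 24 h from 3 dishes per treatment. The labels describe plates divided at random between the treatments and mention no separate cultures, so p-values measure the spread between dishes and not between independent cultures.

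Proteins of the survival class hold the effectors BAK (from BAK1) and BAX in check. BH3-only proteins bind the survival proteins, and some of them also engage the effectors directly, so that the effectors can assemble into pores and release cytochrome c, which starts the caspases. The proteins are controlled to a large extent after translation, by phosphorylation, cleavage and degradation, none of which is visible in RNA. In liver cells, BID links death receptors to mitochondria, and MCL1 and BCL2L1 are the survival genes that hepatocytes are known to depend on.

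The values are FPKM, in which a fragment count is divided by gene length and by the library total, so that levels can be compared between genes. The DMSO libraries held 16763318 to 17274927 fragments each, and the PD libraries held 16308476 to 18071632. Of 20 hepatocyte genes, 11 (ALB and AFP among them) had no row in the table analysed, and of the other 9 the transcription factor HNF4A and the secreted proteins among them were at 0.172 FPKM or less in every library, apart from RBP4, whose level was 0.391 ± 0.0803 FPKM with DMSO and 1.3 ± 0.376 FPKM with PD (SD, n = 3 each). CPS1, a urea cycle enzyme, was at 225 ± 3.45 FPKM in DMSO and 109 ± 2.60 FPKM in PD (SD, n = 3 each), so the summed level of the hepatocyte list, 222 to 229 FPKM in DMSO and 107 to 113 in PD, was almost entirely CPS1. The name HepG2 is therefore used as the labels give it, although most defining hepatocyte genes were absent or near 0. The 12 leukocyte markers summed to 0.741 to 0.960 FPKM in DMSO and 0.791 to 0.889 in PD, with PTPRC and CD3E among 4 that had no row. The 8 of 12 markers of fibroblasts and endothelium that had a row summed to 4.45 to 5.33 FPKM in DMSO and 4.77 to 5.07 in PD, and only COL1A1 (3.46 and 3.45 FPKM) and PDGFRB (0.898 and 1.08 FPKM, group means for DMSO and PD) reached 1 FPKM in a library. The part of these markers in the results below was not tested.

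PD-treated cells had more RNA of BAK1 and BCL2L11 and less of BCL2L2 than DMSO-treated cells, while BCL2, BCL2L1, MCL1, BID and BIK did not pass the test. Differences were tested with limma on log2(FPKM + 1) over the 14400 genes that averaged 0.5 FPKM or more, with p-values adjusted by the Benjamini-Hochberg method over all of them. Of the 10 genes, 8 passed this minimum, and 3 of the 8 were called by limma (adjusted p no higher than 0.05), 2 higher and 1 lower in PD. Over all 14400 genes 58.1% were called, 31.9% as higher and 26.2% as lower, so 3 of 8 (37.5%) is no excess over genes in general. Limma voom on fragments also called 3 of the 8, against 62.7% of all genes it tested. None of the 8 also reached a 2-fold change in limma, a threshold that 3.61% of all genes passed, and none did in limma voom on fragments, where the share was 11.5%. At an unadjusted p under 0.05, limma had 4 of the 8 and voom 3. The 3 PD libraries lay all above the 3 DMSO libraries for 2 of the 8 genes and all below for 2, a separation that 65.4% of all genes tested showed (35.6% above and 29.9% below). The median log2 fold change of the 8 was -0.05, beside 0.01 over all genes tested. In RNA from whole dishes, a change in the share of cells that express a gene cannot be told apart from a change of RNA per cell.

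**Figure D1:**
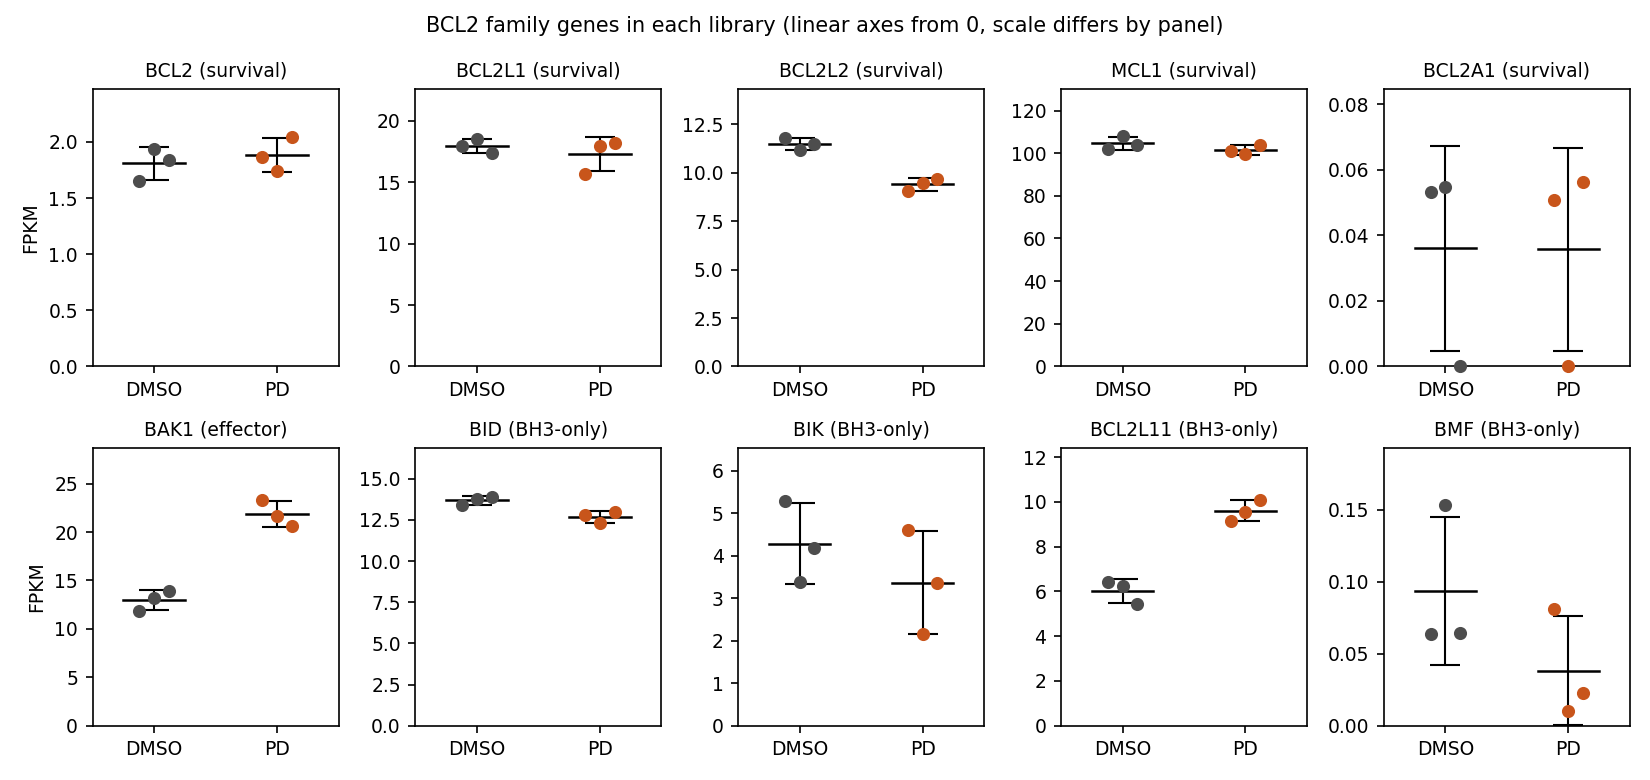
FPKM (vertical axes, linear from 0, a different scale in each panel) of the 10 BCL2 family genes in the 3 DMSO and 3 PD libraries. Points are libraries, lines are means and bars are ± 1 SD. The groups are apart for BAK1, BCL2L11, BCL2L2 and, narrowly, BID, and they overlap for the other 6 genes.

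BAK1 encodes BAK, a protein that sits in the outer mitochondrial membrane and forms pores in it when activated. The gene (ENSG00000030110) lies on chromosome 6 of GRCh38 from 33572547 to 33580293. Its level was 11.8, 13.2 and 13.9 FPKM in DMSO replicates 1, 2 and 3, and 23.3, 21.7 and 20.6 FPKM in PD replicates 1, 2 and 3. All 3 PD libraries were above all 3 DMSO libraries, with a wide gap between the groups. The means were 13 ± 1.10 FPKM in DMSO and 21.9 ± 1.33 FPKM in PD (SD, n = 3 each), a ratio of 1.68. On the log2(FPKM + 1) scale this was a log2 fold change of 0.71 (standard error 0.07), a 95% interval of 0.55 to 0.87 and an adjusted p of 0.00011 (limma). Among the 14400 genes, 932 rose by more. The difference rested on 1468 fragments in DMSO and 2516 in PD, summed over 3 libraries. A pseudogene on the opposite strand, GGNBP1, overlaps 4.1% of the exon length of BAK1, and its highest level in a library, in DMSO replicate 2, was 0.103 FPKM.

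BCL2L11 encodes BIM, a BH3-only protein that binds all the survival proteins and can activate the effectors directly. The gene (ENSG00000153094) lies on chromosome 2 from 111119378 to 111168444. It was at 6.42, 6.23 and 5.43 FPKM in the 3 DMSO replicates and at 9.16, 9.56 and 10.1 FPKM in the 3 PD replicates. As for BAK1, the groups did not overlap. The means were 6.02 ± 0.526 FPKM in DMSO and 9.60 ± 0.459 FPKM in PD (SD, n = 3 each), a ratio of 1.59. BCL2L11 thus had a log2 fold change of 0.60 (standard error 0.07), a 95% interval of 0.44 to 0.75 and an adjusted p of 0.00023 (limma), and 1346 genes rose by more. The fragments behind it were 2051 in DMSO and 3312 in PD. The antisense lncRNA MIR4435-2HG shares 727 bases, or 10.8%, of the exon length of BCL2L11. Without strand in the counting, fragments from these bases could belong to either gene. MIR4435-2HG itself had 5.60, 4.84 and 4.77 FPKM in DMSO and 4.0, 3.97 and 4.0 FPKM in PD, so it moved the other way from BCL2L11.

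Because BAK1 and BCL2L11 were the genes of the family list that rose, the 250 bases before their RefSeq start sites are shown, 5′ to 3′ on the strand of the gene (GRCh38.p14). In all, 7 of the 10 genes had a promoter sequence in the RefSeq table used, and the other genes were BCL2L2, MCL1 and BIK. The BCL2L11 window is chr2:111120664-111120913 on the plus strand, and the BAK1 window is chr6:33580277-33580526 on the minus strand. The RefSeq start site of BCL2L11 lies downstream of the GENCODE gene start at 111119378, so its window is inside the gene as placed above. Other start sites of BCL2L11 are not shown. The BAK1 window overlaps the end of its GENCODE gene at 33580293. Capitals mark matches, on either strand, to the GC box, the CCAAT box and short motifs of FOXO, AP-1, CHOP and ATF4, MYC and E2F. Motifs of other factors, NF-kB and TP73 among them, were not searched.
BCL2L11: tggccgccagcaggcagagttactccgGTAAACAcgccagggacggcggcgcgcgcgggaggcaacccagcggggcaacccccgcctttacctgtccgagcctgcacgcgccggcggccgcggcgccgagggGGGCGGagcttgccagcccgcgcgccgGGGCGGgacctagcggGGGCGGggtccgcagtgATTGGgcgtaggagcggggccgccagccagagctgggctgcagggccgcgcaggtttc
BAK1: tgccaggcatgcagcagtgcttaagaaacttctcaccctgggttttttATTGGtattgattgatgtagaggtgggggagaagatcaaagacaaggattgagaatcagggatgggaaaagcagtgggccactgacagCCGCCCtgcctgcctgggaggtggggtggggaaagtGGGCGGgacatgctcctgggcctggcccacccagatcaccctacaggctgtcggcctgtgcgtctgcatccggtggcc

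The windows differ in composition, with a GC content of 76.8% and 34 CpG dinucleotides for BCL2L11 and 58.0% and 5 for BAK1. The GC box (GGGCGG) matched 3 times in the BCL2L11 window and 2 times in the BAK1 window, and it occurs in 42.6% of the 35116 promoter windows of the same length. The CCAAT box (CCAAT) matched once in each, and 32.0% of all windows hold it. The FOXO motif (GTAAACA), found in 2.98% of all windows, matched in the BCL2L11 window, with its first base 223 bases before the start site, and had no match in the BAK1 window. No match to the AP-1 motif TGACTCA (4.20% of all windows), the CHOP and ATF4 motif TGATGCAA (0.772%), the MYC E box CACGTG (6.34%) or the E2F motifs TTTCGCGC (0.439%) and TTTGGCGC (0.550%) was found in either window. The GC boxes shown did not overlap the other motifs. These matches are a description of letters and not of bound sites.

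BCL2L2, which encodes the survival protein BCL-W, was the gene of the list that fell. It (ENSG00000129473) lies on chromosome 14 from 23298790 to 23311751. Its level was 11.8, 11.2 and 11.5 FPKM in the DMSO replicates and 9.04, 9.49 and 9.68 FPKM in the PD replicates, with every PD library below every DMSO library. The means were 11.5 ± 0.312 FPKM and 9.40 ± 0.330 FPKM (SD, n = 3 each), a ratio of 0.817. BCL2L2 had a log2 fold change of -0.27 (standard error 0.04), a 95% interval of -0.37 to -0.16 and an adjusted p of 0.0015 (limma). This is a smaller change than those of BAK1 and BCL2L11 in size, and 3373 genes fell by more. A read-through gene on the same strand, BCL2L2-PABPN1, shares 16.8% of the exon length, so fragments from the shared bases could come from either gene. BCL2L2-PABPN1 had 0.187, 0.385 and 0.151 FPKM in DMSO and 0.0357, 0.00 and 0.158 FPKM in PD.

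MCL1 encodes a survival protein of very short half-life and lies on chromosome 1 from 150560895 to 150579738. It was by far the most abundant RNA of the list. MCL1 had 102, 108 and 104 FPKM in the DMSO replicates and 101, 99.7 and 104 FPKM in the PD replicates, so the groups overlapped. Its log2 fold change of -0.04 had a 95% interval of -0.12 to 0.03 and an adjusted p of 0.31 (limma). MCL1 was read from 23414 fragments in DMSO and 23075 in PD, and its replicates spread by 2.8% and 2.27% of the mean. The interval is narrow, and a change of the size seen for BAK1 lies outside it. A lncRNA on the same strand, ADAMTSL4-AS1, shares 5.3% of the exon length of MCL1.

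BCL2L1, on chromosome 20 from 31664452 to 31723989, encodes the survival protein BCL-XL and, by splicing, the shorter death-promoting BCL-XS, which gene-level values do not separate. Its level was 18.0, 18.5 and 17.4 FPKM in DMSO and 15.7, 18.0 and 18.2 FPKM in PD. PD replicate 1 was the lowest of the 6 libraries, and the other PD libraries fell within the range of DMSO. For BCL2L1 the log2 fold change of -0.05 had a 95% interval of -0.19 to 0.09 and an adjusted p of 0.47 (limma). Without PD replicate 1, the log2 fold change turned to 0.01. The antisense lncRNA ABALON overlaps 41.3% of the exon length of BCL2L1, with 0.470 to 0.706 FPKM in DMSO and 0.322 to 0.570 FPKM in PD.

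BCL2, the founding survival gene, on chromosome 18 from 63123346 to 63320128, was at a low level, with 1.65, 1.94 and 1.84 FPKM in DMSO and 1.87, 1.74 and 2.04 FPKM in PD. For BCL2 the log2 fold change of 0.04 had a 95% interval of -0.14 to 0.22 and an adjusted p of 0.71 (limma). The spread between replicates (8.25% of the mean in DMSO and 7.92% in PD) was not far above the counting error of 5.25% and 5.11%, which here and below is the error of counting fragments alone. Without DMSO replicate 1 the log2 fold change was -0.01, and without PD replicate 3 it was -0.0027, so its sign rests on single libraries.

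BCL2A1, a survival gene known as a target of NF-kB in blood cells, was at the limit of detection. It was counted with 1, 1 and 0 fragments in DMSO and 1, 0 and 1 in PD, or 0.0532, 0.0548 and 0.00 FPKM and 0.0508, 0.00 and 0.0563 FPKM. A count of 0 allows up to 3 fragments, which are worth 0.161 FPKM in DMSO replicate 3, so no difference was detectable at this depth and no fold change is given.

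BID, BIK and BMF are the BH3-only genes of the list besides BCL2L11. BID is activated when caspase-8 cuts its protein, and it lies on chromosome 22 from 17734138 to 17774770. It had 13.4, 13.8 and 13.9 FPKM in DMSO and 12.8, 12.3 and 13 FPKM in PD. All PD libraries were below all DMSO libraries, but by a small margin. BID had a log2 fold change of -0.10 (standard error 0.04) and an adjusted p of 0.072 (limma), which does not pass the threshold. With FPKM scaled by median-of-ratios factors the adjusted p was 0.029, and with the upper quartile it was 0.020, so the call depends on the scaling.

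BIK, which encodes a protein of the endoplasmic reticulum and lies on chromosome 22 from 43110750 to 43129712, varied most between replicates among the 8 genes tested. Its level was 5.28, 3.38 and 4.17 FPKM in DMSO and 4.59, 2.16 and 3.35 FPKM in PD. In each treatment replicate 1 was the highest and replicate 2 the lowest. The groups overlapped, and the log2 fold change of -0.30 had a 95% interval of -0.80 to 0.21 and an adjusted p of 0.27 (limma). The spread was 22.4% of the mean in DMSO and 36.2% in PD, above the counting error of 12% and 13.4% from 209 and 167 fragments. Leaving out 1 library moved the log2 fold change from -0.50 (without PD replicate 1) to -0.08 (without PD replicate 2), and none of these fits called BIK. With the replicate number added to the fit as a block, the adjusted p of BIK was 0.026 (limma), so its call depends on the model.

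BMF, on chromosome 15 from 40087890 to 40108892, encodes a BH3-only protein that is held at the myosin motor of the cytoskeleton. It was counted with 6, 14 and 6 fragments in DMSO and 8, 1 and 2 in PD, or 0.0638, 0.153 and 0.0644 FPKM and 0.0813, 0.0105 and 0.0225 FPKM. The groups overlapped, and BMF did not pass the FPKM minimum. With no minimum, its adjusted p was 0.32 (limma). At such counts neither a fall nor an unchanged level can be claimed.

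Set in order of level in DMSO, the genes ran from MCL1 through BCL2L1, BID, BAK1, BCL2L2, BCL2L11, BIK, BCL2 and BMF to BCL2A1. MCL1 was 5.82 times the level of BCL2L1, and BCL2 was 19.3 times that of BMF. BID and BAK1 were neighbours whose libraries overlapped, as were BAK1 and BCL2L2, so these neighbours cannot be ranked. In PD-treated cells BAK1 stood above BCL2L1, with its lowest library at 20.6 FPKM against a highest of 18.2 FPKM for BCL2L1, whereas in DMSO its highest library (13.9 FPKM) was under the lowest of BCL2L1 (17.4 FPKM). BCL2L11, which was below BCL2L2 in every DMSO library, overlapped with it in PD.

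The survival genes together had a summed level of 134, 140 and 135 FPKM in DMSO and 128, 129 and 134 FPKM in PD. The ranges overlapped. MCL1 made up 77.0% ± 0.434 of this sum under DMSO and 78.0% ± 0.965 under PD (SD, n = 3 each). BCL2L2 made up 8.46% ± 0.412 and 7.21% ± 0.152. Without MCL1, the other survival genes summed to 31.5, 31.7 and 30.8 FPKM in DMSO. In PD their sum was lower in every library, at 26.7, 29.2 and 30.0 FPKM. The effectors BAK1 and BAX together had 23.8, 24.0 and 25.7 FPKM in DMSO and 40.5, 39.7 and 38.3 FPKM in PD. As a share of the survival sum, this was 17.8%, 17.2% and 19.1% in DMSO and 31.7%, 30.8% and 28.5% in PD. BCL2L11 alone was 5.75% ± 0.519 of the MCL1 level in DMSO and 9.43% ± 0.340 in PD. Among the BH3-only genes of the list the summed level overlapped between the groups, 24.1 ± 0.905 FPKM in DMSO and 25.7 ± 1.46 FPKM in PD, whereas the share of BCL2L11 in it was 25% ± 1.77 and 37.4% ± 2.77 and that of BID 56.9% ± 3.24 and 49.5% ± 1.56. BAX is not among the 10 genes. The BH3-only sum leaves out BH3-only genes outside the list, BBC3, PMAIP1 and HRK among them. PMAIP1 alone had 27.3 ± 0.522 FPKM in DMSO and 30.7 ± 1.38 FPKM in PD (SD, n = 3 each), more than this sum. The BH3-only sum and shares therefore describe the list and not all BH3-only RNA. These ratios combine genes chosen for their roles and were not tested.

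**Figure D2:**
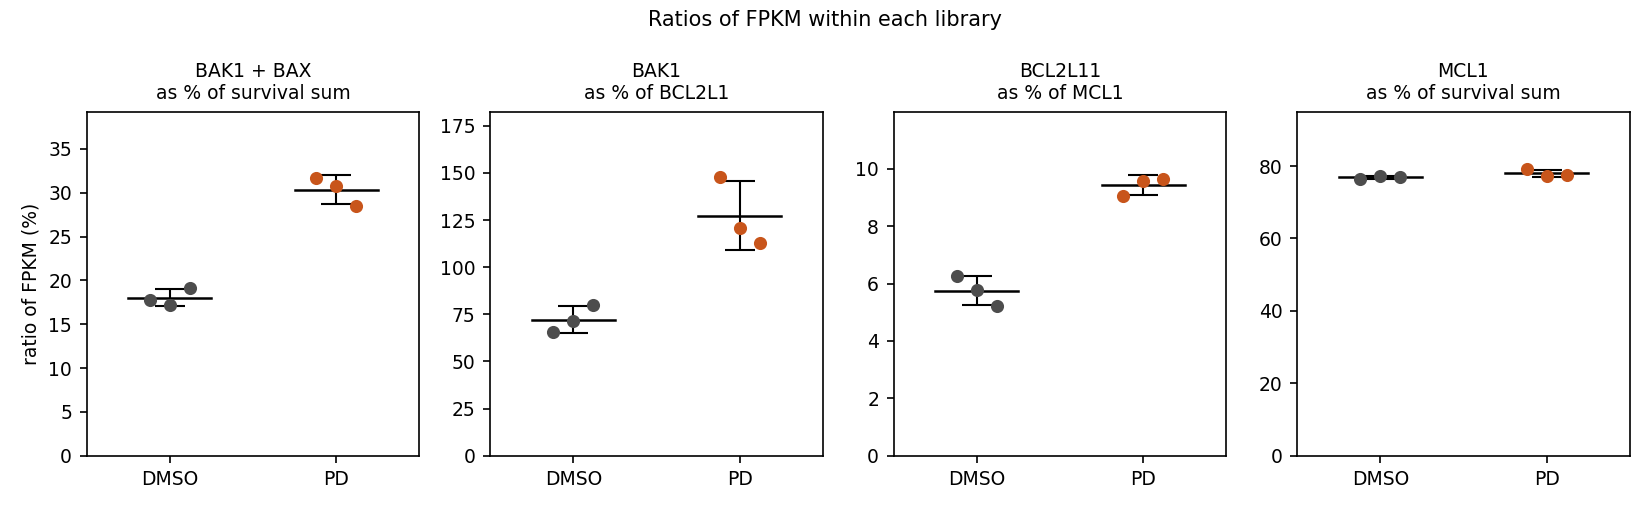
Ratios of FPKM within each library, in percent, with axes from 0. The survival sum is BCL2, BCL2L1, BCL2L2, MCL1 and BCL2A1, points are the 3 libraries per treatment, lines are means and bars are ± 1 SD. BAK1 plus BAX is 17.2% to 19.1% of the survival sum in DMSO and 28.5% to 31.7% in PD, while the share of MCL1 is nearly level.

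Beyond the 10 genes, 13 other members of the BCL2 family were examined, of which 10 passed the FPKM minimum. Of these 10, 7 (70.0%) rose and 0 fell in limma at the same threshold, where 31.9% of all genes tested were higher and 26.2% lower, and the median of their log2 fold changes was 0.25, beside 0.01 over all genes tested. BAX is the effector partner of BAK1, and its protein moves from the cytosol to mitochondria. Its RNA rose from 12, 10.7 and 11.7 FPKM in DMSO to 17.3, 18.0 and 17.6 FPKM in PD. On the log2(FPKM + 1) scale the rise of BAX was 0.58 (standard error 0.05), with an adjusted p of 6.2e-05 (limma). BBC3 and PMAIP1 encode the BH3-only proteins PUMA and NOXA. BBC3 rose by 0.34 on the log2(FPKM + 1) scale, from 5.88 ± 0.236 to 7.69 ± 0.811 FPKM (SD, n = 3 each). PMAIP1 rose by 0.16, with 27.3 ± 0.522 and 30.7 ± 1.38 FPKM.

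HRK, a BH3-only gene best known from neurons, rose from 1.21 ± 0.0345 to 1.98 ± 0.0968 FPKM (SD, n = 3 each), and the pseudocount makes its log2 fold change of 0.43 smaller than the 0.71 from voom. BCL2L12 had the largest rise of this group, 0.72 on the log2(FPKM + 1) scale, but IRF3 on the opposite strand covers 25.9% of its exon length. IRF3 had 10.5, 10.4 and 12.8 FPKM in DMSO and 10.6, 10.4 and 10.7 FPKM in PD. BOK (0.12), BAD (0.08) and BNIP3L (-0.02) had adjusted p of 0.24, 0.67 and 0.81 (limma). BCL2L15 was under the minimum and was counted with 30, 34 and 26 fragments in DMSO and 10, 10 and 6 in PD. Voom on fragments, which keeps such genes, gave it a log2 fold change of -1.77 and an adjusted p of 9.2e-05.

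**Figure D3:**
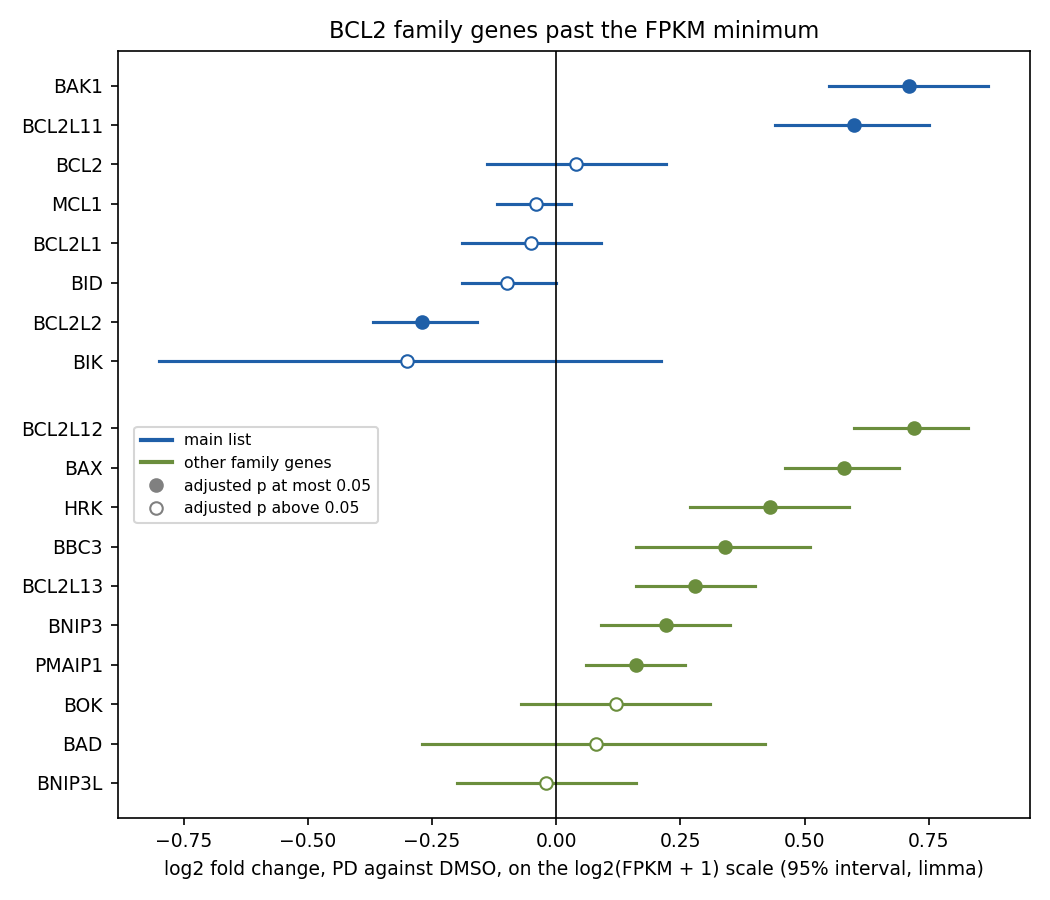
Log2 fold change of PD against DMSO on the log2(FPKM + 1) scale (horizontal axis) with the 95% interval from limma, for the 8 genes of the main list and the 10 other family genes past the FPKM minimum. Filled points have an adjusted p of at most 0.05. BAK1 (0.71), BCL2L11 (0.60) and BAX (0.58) lie well to the right of 0, and BCL2L2 (-0.27) lies to the left.

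Downstream of the mitochondria, 13 of 16 genes of caspases, the apoptosome and the outer membrane channels were called, 9 higher (56.2%, against 31.9% of all genes) and 4 lower (25%, close to the 26.2% of all genes), and their median log2 fold change was 0.21. CASP6 (0.73), which encodes an executioner caspase, and CASP9 (0.48), which encodes the caspase that the apoptosome activates, were among the largest rises. The largest falls on the log2(FPKM + 1) scale were those of VDAC1 (-0.26), VDAC2 (-0.25) and CYCS (-0.25), all of them abundant. VDAC2 encodes the channel that keeps BAK at the membrane, and CYCS encodes cytochrome c. VDAC2 fell from 87.3 ± 1.66 to 73.2 ± 1.48 FPKM (SD, n = 3 each).

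The IAP family encodes proteins that restrain caspases or the signals that lead to them. Of its 8 genes, 7 had a row, 5 were tested, and 4 of the 5 fell with none rising (26.2% of all genes fell and 31.9% rose), while XIAP (0.10) had an adjusted p of 0.34 (limma). BIRC3, which acts on TNF receptor signalling and is an NF-kB target, had the largest fall, from 23.7, 24.5 and 18.8 FPKM in DMSO to 9.26, 8.20 and 8.41 FPKM in PD. The log2 fold change of BIRC3 was -1.27 (standard error 0.10), with an adjusted p of 4e-05 (limma). BIRC6 (-0.71) and BIRC5, which encodes survivin, a mitotic protein (-0.39), followed.

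In the death receptor pathway, which meets the BCL2 family at BID, 66.7% of 12 tested genes were called, near the 58.1% of all genes. By direction, 6 rose (50%, against 31.9% of all genes) and 2 fell (16.7%, against 26.2%). TRADD rose from 3.84 ± 0.358 to 8.5 ± 0.197 FPKM and RIPK1 from 4.43 ± 0.241 to 9.32 ± 0.783 FPKM (SD, n = 3 each). Their log2 fold changes were 0.97 and 0.93 on the log2(FPKM + 1) scale, and 1.14 and 1.07 in voom. Both encode proteins recruited to TNF receptor complexes, and TNFRSF10C, a decoy receptor for TRAIL, rose by 0.47, although a gene model on the same strand shares 16.9% of its exon length. CFLAR, which encodes the caspase-8 inhibitor c-FLIP, fell by 0.50 on the log2(FPKM + 1) scale and by 0.84 in voom, from 1.95 to 1.08 FPKM, and FAS, a death receptor, fell by 0.36. CASP8, which encodes the caspase that cuts BID, had 5.41 ± 0.310 FPKM in DMSO and 5.06 ± 0.321 FPKM in PD (SD, n = 3 each), with an adjusted p of 0.30 (limma).

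Among 15 transcription factors known to act on BCL2 family genes, 6 were called as higher and 6 as lower in PD (40.0% each), beside 31.9% and 26.2% of all genes. The count of higher genes depends on the processing. It was 4 with median-of-ratios scaling and 4 with upper quartile scaling, where 6 and 7 were lower. With voom it stayed at 6, and 6 were lower. DDIT3, which encodes CHOP and is known to raise BCL2L11, had the largest rise, from 12.9 ± 2.46 to 28.3 ± 3.32 FPKM (SD, n = 3 each). However, MARS1 on the opposite strand covers 27.2% of the exon length of DDIT3. MARS1 had 42.8, 43.1 and 45.0 FPKM in DMSO and 34.9, 35.7 and 37.0 FPKM in PD, and its part in the DDIT3 values was not tested. E2F1 (0.43) and TP73 (0.37) also rose, and their order depends on the pseudocount, since voom gave 0.44 for E2F1 and 0.75 for TP73. FOXO3, whose protein is known to act on BCL2L11, was at 6.17 ± 0.191 FPKM in DMSO and 7.75 ± 0.511 FPKM in PD (SD, n = 3 each). Its rise was 0.28 on the log2(FPKM + 1) scale, with an adjusted p of 0.0039 (limma). FOXO3 was named after its value had been seen. The largest falls were those of MITF (-1.0), a known activator of BCL2 and BCL2A1 in melanocytes, MYC (-0.95) and NFKB1 (-0.66), which encodes a subunit of NF-kB. Whether any of these factors acts on the BCL2 family in these cells was not tested.

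For 12 genes whose proteins bind BCL2 family proteins or control their turnover, 6 rose (50%, against 31.9% of all genes) and 3 fell (25%, close to the 26.2% of all genes). DYNLL2, a dynein and myosin light chain that tethers BMF, rose by 0.66 on the log2(FPKM + 1) scale, with 14.4 ± 0.917 and 23.3 ± 0.279 FPKM (SD, n = 3 each). BAG3 (0.55), a co-chaperone, and BCAP31 (0.47), a caspase-8 substrate of the endoplasmic reticulum, were the other large rises. BAG1, which was named for its binding to BCL2, fell by 0.66, with 30.0 ± 1.12 and 18.6 ± 1.0 FPKM (SD, n = 3 each). USP9X, a deubiquitinase that stabilises MCL1, fell by 0.32. PPP2CA, a phosphatase subunit, fell by 0.25, although a gene model on the same strand shares 26.1% of its exon length. The highest level of that gene model in a library, in DMSO replicate 1, was 0.133 FPKM. HUWE1 and FBXW7, which mark MCL1 for degradation, had log2 fold changes of -0.05 and -0.01 with adjusted p of 0.30 and 0.93 (limma).

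**Figure D4:**
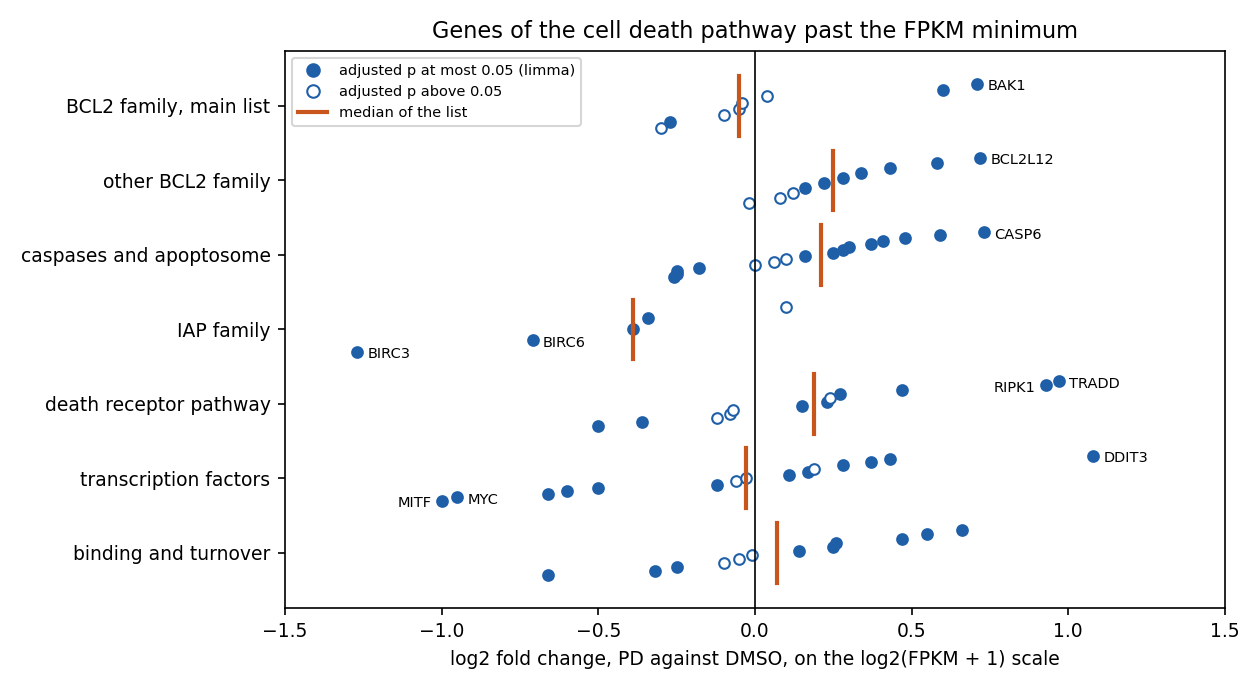
Log2 fold change of PD against DMSO on the log2(FPKM + 1) scale (horizontal axis) for the tested genes of 7 lists, with 1 point per gene. Filled points have an adjusted p of at most 0.05 (limma), vertical bars are list medians, and genes beyond 0.70 in either direction are named. The IAP family has its median at -0.39 and the other BCL2 family genes at 0.25, with the main list at -0.05.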

How the data were processed

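RNA-seq was made from cells labelled HepG2 after PD or DMSO, with 3 libraries per treatment, and groups and replicate numbers were taken from the sample titles. The authors selected poly(A) RNA, used HISAT2 for alignment (build hg38) and HTSeq for counting (0.6.0 in the submitters' processing notes), and deposited FPKM in a single table of 28563 genes. A strand setting and the annotation are not given in the sources used here. Symbols, positions and exon overlaps came from GENCODE on GRCh38, where 28161 identifiers matched. The exon length in this annotation fitted the FPKM of 12772 genes, and for 15791 another length was worked back. For BCL2L12 it was 2216 bases against 2833 in the annotation, and for BCL2L1 3314 against 4197. The shares of exon length given for overlapping genes thus refer to this annotation, and they can differ in the gene models that were counted.

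Limma 3.58.1 (R 4.3.3) was fitted with an intensity-dependent prior variance to log2(FPKM + 1) of genes that averaged 0.5 FPKM or more. The pseudocount of 1 understates changes of low genes. Whole fragments were worked back from FPKM within 1e-04 of a whole number, with library totals read from genes of 1 fragment. The recovered fragments made up 99.7% to 99.8% of these totals. They served for depth, for counting error and for limma voom on genes with at least 10 fragments in 3 or more libraries. Counting errors and limits of a count of 0 cover counting only. Replicates were compared for duplicates, and their counts differed by a chi-square per gene of 2.30 to 3.78. The fit was tested on simulated data.

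Named were the 10 genes, BAX, BBC3, PMAIP1, the 3 largest called rises and falls of each other list, marker genes that reached 1 FPKM, and a few genes named after their values had been seen (BCL2L15, BOK, BAD, BNIP3L, XIAP, CASP8, FOXO3, HUWE1 and FBXW7, and markers near 0). The 10 genes and all lists were chosen with earlier results of these data known. A few genes of these lists are counted in the totals but not reported here.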

Additional observations from a re-analysis of the deposited data

How the results depend on the processing

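The calls of BAK1, BCL2L11 and BCL2L2 held under all 12 alternatives, which were a pseudocount of 0.1, no FPKM minimum, median-of-ratios and upper quartile scaling, voom on fragments, the replicate block and leaving out each library. Their log2 fold changes ran from 0.65 to 0.76, from 0.53 to 0.67 and from -0.31 to -0.24, with adjusted p of at most 0.0015, 0.0022 and 0.0078 (limma). Between 3 and 4 of the 10 genes were called, and none reached 2-fold in any of them. BID (0.029 and 0.020) was called under median-of-ratios and upper quartile scaling. Leaving out each library gave BCL2 log2 fold changes of -0.01 to 0.07 (-0.01 without DMSO replicate 1 and -0.0027 without PD replicate 3), BCL2L1 of -0.09 to 0.01 (0.01 without PD replicate 1), and BIK of -0.50 (without PD replicate 1) to -0.08 (without PD replicate 2). Over all genes the number past 2-fold was 520, but 1248 with the pseudocount of 0.1 and 1735 with voom. Leaving out a library gave 511 to 561. Of the weaker calls in the other lists, FOXO4, RELA, MARCHF5 and DFFB were lost most often.

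Over all genes tested, deviations from the group means correlated at -0.027 to 0.090 for same-numbered libraries and at -0.084 to 0.085 for the others. No pairing by replicate number was seen in these values, which cannot settle it for a single gene. With the replicate block, BIK was called (log2 fold change -0.30, adjusted p 0.026), and 3 other genes of the 10 stayed called.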
